A study of Mus musculus with 32 samples.

Results

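Apoa4 and the other apolipoproteins of mouse liver were examined here: 10 genes chosen by symbol, namely Apoa1, Apoa2, Apoa4, Apoa5, Apob, Apoc1, Apoc2, Apoc3, Apoe and Apom. Of these, 9 had a probe under their symbol in the array annotation, with 11 of the 25697 probes, and Apob was not analysed here. Each of the 11 probes was detected (detection p under 0.05) in all 27 mice used, so no apolipoprotein with a probe was lost to the filter on low signal that left 9954 genes for testing. Disulfiram (DSF), a drug given against alcohol dependence, was fed to male C57BL/6J mice in a standard diet (SD) or a high-fat diet (HFD), and liver RNA was measured on Illumina MouseRef-8 v2 BeadChips. The question was which liver transcripts the diet and the drug altered.

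All mice were male C57BL/6J on an AIN-93G-based study diet for 40 weeks from 16 weeks of age, fed freely and not fasted at collection. The labels give the age at collection as 56 weeks in one field and 58 weeks in another. The HFD, HFDL and HFDH groups ate the diet with 61% of calories from fat, without DSF, with 100 mg/kg/day and with 200 mg/kg/day. The SD, SDL and SDH groups ate the diet with 17% of calories from fat at the same nominal doses. The food held 2.33 g/kg of DSF for HFDL and 2.67 g/kg for HFDH, against 1 g/kg for SDL and 2 g/kg for SDH, so that the concentrations of the high-fat food lay closer together than the nominal doses. There were 5 mice each in HFD, SD and SDL and 4 each in HFDL, HFDH and SDH, after 3 mice with low-signal arrays (6.56% to 27.2% of probes detected) were left out. How mice were allotted to arrays is not given in the sources used here. Where SD stands in parentheses with n, the value after ± is the standard deviation over mice, and elsewhere SD is the standard-diet group.

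Apolipoproteins are the protein coats of the particles that carry lipids in blood. The liver secretes very-low-density lipoproteins, which need Apob as their scaffold, and the precursors of high-density lipoproteins, which are built on Apoa1. Other members are exchanged between particles, where they activate or restrain lipases, act as ligands for clearance receptors, or carry small signalling lipids. Apoa4 is made mainly by the intestine, but mouse liver also expresses it, and its hepatic transcript is known to respond to lipid load through the transcription factor Creb3l3. Apoa1, Apoc3, Apoa4 and Apoa5 lie next to one another in this order on chromosome 9, and Apoc1 and Apoe are neighbours on chromosome 7.

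The promoter windows of the genes on which the results turn are shown as background to those results: Apoa4 (chr9:46240594-46240893, plus strand), its chromosomal neighbour Apoa5 (the first of 2 listed starts, chr9:46268358-46268657, plus strand) and Apom (chr17:35131752-35132051, minus strand). They are RefSeq sequences of build GRCm38.p6, and each runs from 250 bases before the transcription start to 50 bases after it. The array files name no genome build.
Apoa4: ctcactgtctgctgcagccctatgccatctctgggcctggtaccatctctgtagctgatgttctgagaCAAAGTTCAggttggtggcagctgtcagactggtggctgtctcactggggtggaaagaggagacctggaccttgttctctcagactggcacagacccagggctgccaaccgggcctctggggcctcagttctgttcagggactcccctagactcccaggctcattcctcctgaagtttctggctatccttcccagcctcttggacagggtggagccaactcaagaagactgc
Apoa5: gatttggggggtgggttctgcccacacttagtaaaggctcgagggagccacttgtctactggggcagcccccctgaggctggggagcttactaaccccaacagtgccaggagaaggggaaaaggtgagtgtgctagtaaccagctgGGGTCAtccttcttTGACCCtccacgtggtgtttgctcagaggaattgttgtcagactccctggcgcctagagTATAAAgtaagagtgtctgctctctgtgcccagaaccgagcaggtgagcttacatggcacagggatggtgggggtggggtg
Apom: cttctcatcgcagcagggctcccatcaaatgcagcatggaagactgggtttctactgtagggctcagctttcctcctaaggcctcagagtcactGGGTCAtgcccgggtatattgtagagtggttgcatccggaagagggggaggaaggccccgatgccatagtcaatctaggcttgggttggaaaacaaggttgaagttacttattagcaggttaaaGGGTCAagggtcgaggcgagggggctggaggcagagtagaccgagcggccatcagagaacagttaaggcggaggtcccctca
Capitals mark letter matches on either strand, written as they read in the gene's direction. The letters CAAAGNNCA, a core of sites for the hepatocyte factor HNF4, occurred 1 time in the Apoa4 window, starting at base 69 of the window, and in 6.36% of all 32851 windows of the table. The half-site GGGTCA occurred 2 times in the Apom window (bases 95 and 219) and 2 times in the Apoa5 window (bases 147 and 161, the second on the opposite strand), against 13.7% of all windows with at least 1 match. The letters TATAAA, found in 13.6% of all windows, were present in the Apoa5 window at base 220. AGGTCA (in 16.3% of all windows), TGACG (20.8%), CCAAT (37.4%) and GTTAAT (7.1%) had no match in these 3 windows, and the motifs CAAAGNNCA and GGGTCA were added after the windows had been read. A letter match is a description of the sequence and does not show a bound site.

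Apoa4 fell with DSF in mice on the standard diet, at both doses, and did so by more than 3-fold. The deposited intensities of its probe (ILMN_2834123) in SD livers were 6299, 11647, 6666, 11161 and 14401. In SDL livers they were 1705, 2309, 1626, 3342.5 and 3200, and in SDH livers 1323, 1119, 2862 and 3357. The brightest liver of either DSF group thus lay below the dimmest liver of the SD group. On the Z-normalized log2 scale used for testing, Apoa4 averaged 4.24 ± 0.43 in SDL livers and 6.06 ± 0.59 in SD livers (SD, n = 5 each), a log2 fold change of -1.82 ± 0.34 (SE), or 3.52-fold lower (limma, adjusted p = 0.008). It averaged 4.04 ± 0.82 in SDH livers (SD, n = 4), with a log2 fold change of -2.02 ± 0.36 (SE) relative to SD, or 4.06-fold lower (limma, adjusted p = 0.0016). The exact two-sided permutation test over mice gave p = 0.0079 for each of these differences. That is the lowest value it can give with these group sizes. With Benjamini-Hochberg adjustment over the 5 comparisons it was 0.02. Among all genes tested, 0.633% were called in SDL-SD (0.271% rose and 0.362% fell) and 7.07% in SDH-SD (2.81% rose and 4.26% fell) at an adjusted p under 0.05, and the groups failed to overlap, in the downward direction, for 1.23% and 4.62% of genes. The SDL-SD and SDH-SD comparisons share the 5 SD mice and are not independent of each other. Between the doses, Apoa4 differed by -0.21 (95% interval -0.94 to 0.53) in SDH-SDL, within the spread of the mice.

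On the high-fat diet, the Apoa4 signal was 12387, 9979, 3561, 12933 and 12466 in HFD livers. It was 6119, 4473, 4158 and 7499 in HFDL livers, and 4250, 3537, 3683 and 7961 in HFDH livers. HFD mouse 3 stood at the level of the DSF-fed mice, while every one of the 8 DSF-fed mice lay below the other 4 HFD mice. The log2 fold change was -0.56 ± 0.36 (SE) in HFDL-HFD (limma, adjusted p = 0.61) and -0.89 ± 0.36 (SE) in HFDH-HFD (limma, adjusted p = 0.16), neither past the threshold, and the exact permutation p was 0.16 and 0.087. Without HFD mouse 3, the HFDH-HFD difference was -1.20 and passed (limma, adjusted p = 0.038), and with arrays centred on the median and not scaled it was -1.19 (adjusted p = 0.042). Among all genes, 0.462% were called in HFDL-HFD and 4.39% in HFDH-HFD, where 1.45% rose.

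**Figure D1:**
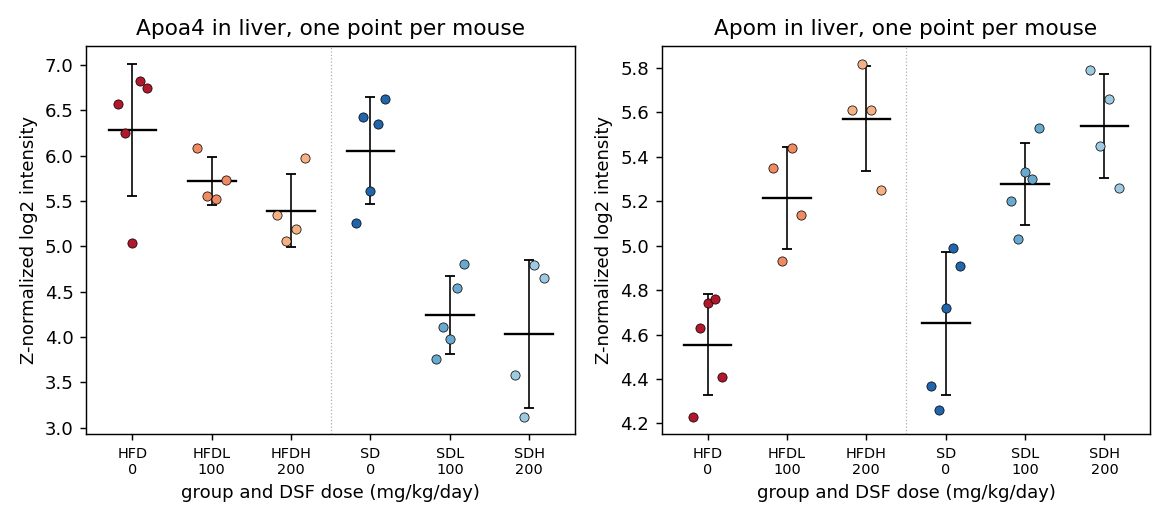
Z-normalized log2 intensity of Apoa4 (left) and Apom (right) in each liver, by diet group and DSF dose. Points are mice, horizontal bars are group means and whiskers are 1 SD (n = 5 for HFD, SD and SDL, n = 4 for HFDL, HFDH and SDH). Every SDL and SDH liver lies below every SD liver for Apoa4, and 1 HFD liver (mouse 3, at 5.04) lies below the other HFD livers and just below the lowest high-fat liver with DSF (HFDH mouse 14, at 5.06). For Apom, every liver with DSF lies above every liver without it on the same diet.

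The diet without the drug left Apoa4 within the spread of the mice, at 6.29 ± 0.73 in HFD livers and 6.06 ± 0.59 in SD livers (SD, n = 5 each), a difference of 0.23 (95% interval -0.46 to 0.92; limma, adjusted p = 0.81), which became -0.04 with arrays centred on the median and not scaled. Under DSF the diets were apart: Apoa4 averaged 5.72 ± 0.26 in HFDL livers (n = 4) and 4.24 ± 0.43 in SDL livers (n = 5), 2.79-fold higher in HFDL (limma, adjusted p = 0.023; 3.04% of genes were called), and the HFDH livers were 2.57-fold higher than the SDH livers (adjusted p = 0.031; 6.85% of genes were called). The change with DSF was smaller on the high-fat diet than on the standard diet by a log2 difference of 1.25 ± 0.49 between HFDL-HFD and SDL-SD and of 1.13 ± 0.50 between HFDH-HFD and SDH-SD. These differences between the diets had unadjusted p of 0.017 and 0.034 but did not pass the limma test over all genes (adjusted p = 1.00 and 0.35, with 0% and 0.0603% of all genes called), so a difference in response between the diets was not established. In order of mean level, Apoa4 ran from HFD through SD, HFDL, HFDH and SDL to SDH. Of the 5 neighbouring pairs only HFDH and SDL differed past the threshold (1.15, limma, adjusted p = 0.045), where 8.2% of all genes were called. In deposited log2 intensity the difference between HFDH and SDL was 0.98. This pair was not run under the alternative settings.

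In the fit to the 27 mice, none of the neighbours of Apoa4 in the cluster (Apoa1, Apoc3 and Apoa5) was called in SDL-SD or SDH-SD. Apoc3, at 0.42 in SDH-SD, passed upward without HFDH mouse 17 (limma, adjusted p = 0.035) and with all 30 mice and array weights (0.42, adjusted p = 0.038). Apoa1 and Apoc3 are among the bright genes described below, whose size of change, and in some comparisons direction, depended on the scaling. Over the 27 mice, the deviations of Apoa4 from its group means had correlations of -0.10 to 0.23 with those of the other 8 genes, values that share the array and its scaling and are given as a description only. Of the windows printed above, that of Apoa5 holds a TATAAA match and that of Apoa4 holds none.

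In whole-liver RNA, fewer cells of a type and less RNA per cell cannot be told apart. Because Apoa4 is chiefly an intestinal gene, markers of enterocytes were examined: of 13 listed, 11 had a probe, and 6 of these (Fabp2, Sis, Vil1, Cdx2, Reg3g and Clca1) were detected in 0 of 27 livers. The other 5 were detected in some or all: Anpep in 27, Mep1b in 23, Cdx1 in 20, Slc5a1 in 5 and Muc13 in 3 livers. Anpep reached an intensity of 1100, and the other 4 stayed at or below 103. The summed intensity of the 11 was 781 to 1440 in SD livers, 872 to 1055 in SDL livers and 804 to 1183 in SDH livers, and of the 4 that could be tested 0 were called in SDL-SD or SDH-SD (limma), with 0 at an unadjusted p under 0.05. Of the 12 hepatocyte markers, 8 or 9 were detected in each liver, while the probes of Fabp1, Fgb and Tat were not detected in any and that of Alb was near background (50 to 109) throughout. In SDH-SD, where 7.07% of all genes were called, the marker lists had 1 call in 9 tested genes for hepatocytes (Alb, 0.51, limma, adjusted p = 0.026), 1 in 10 for stellate cells (Col1a1, -0.96, adjusted p = 0.033), 1 in 8 for endothelium (Eng, -0.36, adjusted p = 0.049) and 1 in 2 for bile duct cells (Sox9, 0.94, adjusted p = 0.006). Of these markers, Col1a1 read 50 to 257 and was detected in 16 livers, and Sox9 read 57 to 223 and was detected in 26. The marker calls were not rerun without SDH mouse 17, whose pancreatic transcripts are given next. The part of these markers in the fall of Apoa4 was not tested. Pancreatic acinar transcripts were detected in full (17 of 17) in SD mouse 2 and SDH mouse 17. Their summed intensity was 16050 and 116165, against 1207 to 2945 in the other 25 livers. Of those 25, SD mouse 4 had 14 of 17 detected (sum 2945) and SDL mouse 7 had 13 of 17 (sum 2087). Without SD mouse 2 and SDH mouse 17, Apoa4 fell by 1.72 in SDL-SD (limma, adjusted p = 0.021) and by 2.13 in SDH-SD (adjusted p = 0.0042). SD mouse 4 and SDL mouse 7 stayed in that fit.

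Apom, which binds sphingosine 1-phosphate and travels on high-density lipoprotein, moved the opposite way and rose with DSF on both diets. Its intensities (probe ILMN_2916782) were 2383, 3232.5, 2897, 3130 and 2474 in HFD livers. They were 3766, 2962, 3945 and 5007 in HFDL livers and 5033, 5866, 4853 and 4857 in HFDH livers. Only HFDL mouse 8 lay inside the range of the HFD group in deposited intensity, and after normalization no HFDL or HFDH liver did. The log2 fold change was 1.02 ± 0.16 (SE) in HFDH-HFD, or 2.03-fold higher (limma, adjusted p = 0.00045), and 0.66 ± 0.16 in HFDL-HFD, which missed the threshold (adjusted p = 0.057). The HFDL-HFD difference passed when any 1 of SD mice 2, 4 or 5, SDH mouse 17 or HFDL mouse 8 was left out (0.66 to 0.76, adjusted p = 0.040 to 0.046). Groups failed to overlap, in the upward direction, for 1.71% of genes in HFDL-HFD and 3.83% in HFDH-HFD.

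On the standard diet, Apom read 3295.5, 2508, 3497, 4202 and 4146 in SD livers. The values were 4762, 4476, 4082, 5725.7 and 5238 in SDL livers and 5987, 5827, 5163 and 5167 in SDH livers. All SDH livers were above all SD livers, and SDL mouse 9 was below the 2 brightest SD livers in deposited intensity but above all of them after normalization. Apom was 1.86-fold higher in SDH than in SD (log2 fold change 0.89 ± 0.16; limma, adjusted p = 0.0016) and 1.55-fold higher in SDL than in SD (0.63 ± 0.15; adjusted p = 0.043). Groups failed to overlap upward for 1.35% of genes in SDL-SD and 2.93% in SDH-SD. The SDL-SD call was lost without any 1 of SD mice 1, 2 and 3 or SDL mice 7, 8, 9, 10 and 11. Leaving out SDH mouse 15, HFD mouse 2, HFDH mouse 13 or HFDH mouse 15 alone also lost it. These single omissions gave 0.53 to 0.69 (limma, adjusted p = 0.051 to 0.18). Without both SD mouse 2 and SDH mouse 17 it was lost as well (0.53, adjusted p = 0.13). The exact permutation p was 0.0079 in each of the 4 comparisons of DSF with no DSF, the lowest value possible with these group sizes. Adjusted over the 5 comparisons it was 0.0099. Diet alone left Apom at 4.55 ± 0.23 in HFD livers and 4.65 ± 0.32 in SD livers (SD, n = 5 each; -0.10, adjusted p = 0.82), and the change with DSF differed between diets by 0.03 at the low dose (95% interval -0.41 to 0.48) and 0.13 at the high dose (-0.33 to 0.59). In order of mean level Apom ran from HFDH through SDH, SDL, HFDL and SD to HFD. Of the neighbouring pairs only HFDL and SD differed past the threshold (0.57, limma, adjusted p = 0.023), where 10.4% of all genes were called. The HFDL and SD livers overlapped, and their difference was 0.41 with quantile normalization and 0.12 with median centring.

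Apoa5 and Apoc2 act on triglyceride clearance, Apoa5 as a promoter of lipoprotein lipase action and Apoc2 as its obligate cofactor. Apoa5 signals were 1650, 1889, 1732, 1711 and 2087 in HFD livers, 2485, 1999, 2204 and 2838 in HFDL livers and 2532, 2043, 2356 and 1535 in HFDH livers. The lowest HFDL liver was inside the range of the HFD group in deposited intensity, and after normalization the groups did not overlap (0.57 ± 0.21, SE; limma, adjusted p = 0.28). In HFDL-HFD upward non-overlap was found for 1.71% of all genes. It was found for 3 of the 9 apolipoproteins: Apoa5, Apom and Apoc3, the last a bright gene described below. With all 30 mice and array weights the difference was 0.62 and passed (adjusted p = 0.016). Apoa5 was 0.39 lower on the log2 scale in HFD than in SD livers, at 3.92 ± 0.17 and 4.31 ± 0.35 (SD, n = 5 each; adjusted p = 0.37). It changed by -0.11 in SDL-SD and -0.24 in SDH-SD (adjusted p = 0.89 and 0.52), so the standard-diet fall of Apoa4 had no counterpart past the threshold in Apoa5.

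Apoc2 was measured by 2 probes that gave different answers on the diet. The brighter probe read 1622, 1945, 1598, 1963 and 1236 in HFD livers, against 1412, 1398, 1394, 1583 and 1656 in SD livers, and overlapped (0.32 ± 0.12, SE; limma, adjusted p = 0.22). The dimmer probe read 546, 520.5, 394, 507 and 409 in HFD livers, against 307, 291, 311, 333 and 373 in SD livers. These did not overlap (upward non-overlap was found for 1.19% of genes in HFD-SD), and the dimmer probe rose (0.63; adjusted p = 0.015), as did the mean of both probes (0.48; adjusted p = 0.015). In HFDL livers the dimmer probe read 271, 327, 222 and 415, -0.57 relative to HFD (limma, adjusted p = 0.052). In HFDH livers it read 455, 383, 446 and 570, -0.04 relative to HFD (adjusted p = 0.9). In the fit as described, no comparison of DSF with no DSF passed for either Apoc2 probe, but with median centring the brighter probe fell in HFDH-HFD (-0.37, adjusted p = 0.034, against -0.14 and 0.55).

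**Figure D2:**
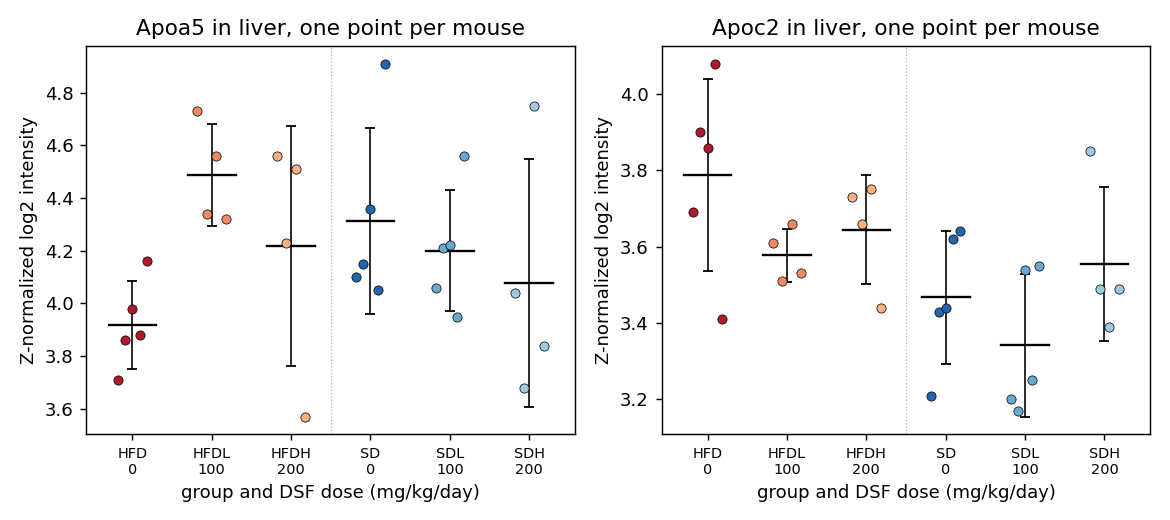
Z-normalized log2 intensity of Apoa5 (left) and of the brighter Apoc2 probe (right) in each liver, by diet group and DSF dose. Points are mice, horizontal bars are group means and whiskers are 1 SD. The HFDL livers lie above the HFD livers for Apoa5, at a mean of 4.49 against 3.92, as they do for 1.71% of all genes. The other DSF groups overlap the group without DSF on their diet.

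The remaining 5 genes were among the brightest on the array and hardly moved in deposited signal. Apoa1 and Apoa2 are the main proteins of high-density lipoprotein, Apoc1 and Apoc3 restrain lipoprotein clearance, and Apoe is a ligand of the LDL receptor family. Their probes ranked 43, 37, 52, 4 and 27 of 25697 by mean signal and reached 58.3% to 100% of the highest signal on their array. Apoc3, the brightest, averaged 26111 ± 775 in HFD livers, 27306 ± 5940 in HFDL livers and 30348 ± 3010 in HFDH livers (SD, n = 5, 4 and 4), and 25904 ± 1240 in SD livers, 26748 ± 1660 in SDL livers and 27750 ± 566 in SDH livers (n = 5, 5 and 4). The standard deviation of log2 intensity over the 27 mice was 0.0908 to 0.151 for these 5 genes, against 1.07 for Apoa4 and 0.407 for Apom. Saturation of such bright probes was not tested, and a change near the top of the range can be compressed.

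After Z-normalization these 5 genes were higher in every one of the 5 comparisons, by 0.17 to 0.47 on the log2 scale, with no call. That shift was shared with other bright probes: the 95 other genes among the 100 brightest had a median log2 fold change between 0.23 (SDL-SD) and 0.34 (HFD-SD), against medians of 0.27 and 0.39 for the 5 apolipoproteins in those comparisons. Under quantile normalization the 5 apolipoproteins had medians of 0.01 to 0.04 and the 95 other genes -0.02 to 0.02. No direction is therefore given for Apoa1, Apoa2, Apoc1, Apoc3 or Apoe, as the size, and in some comparisons the sign, depended on the scaling. In SDL-SD all 5 stayed positive, at 0.25 to 0.27 with Z-normalization, 0.06 to 0.09 with median centring and 0.01 to 0.06 with quantile normalization. Median centring without scaling shifted the median of all genes by -0.13 to -0.05 in the 5 comparisons. Apoa4 in SDH-SD was -2.17 with quantile normalization and -2.26 with median centring, and Apom in HFDH-HFD was 0.93 and 0.71.

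**Figure D3:**
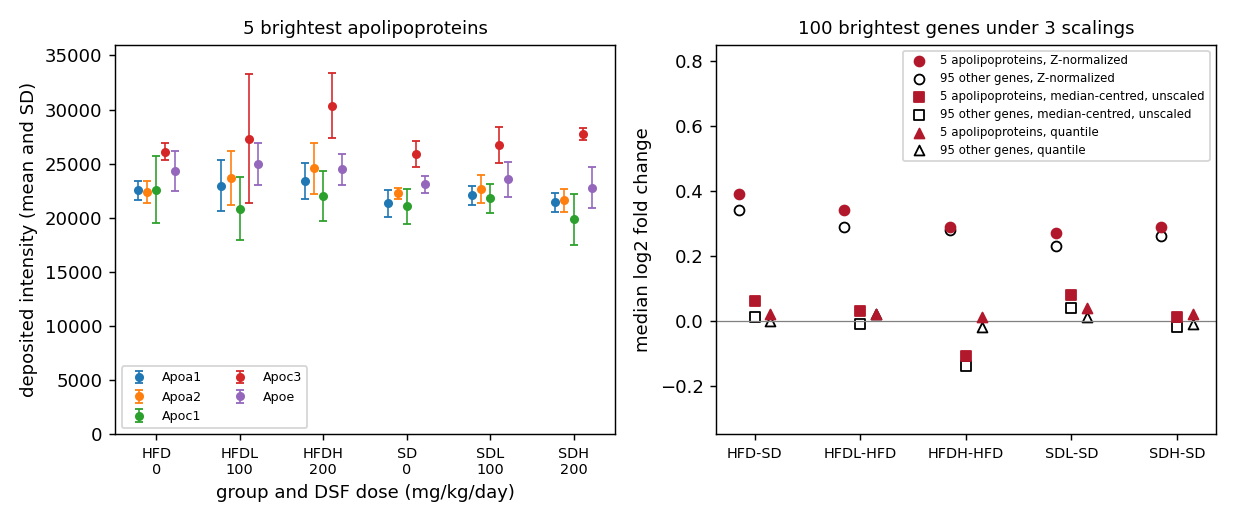
Left, deposited intensity (linear scale) of the 5 brightest apolipoproteins by group and DSF dose, as mean and SD over mice. Right, median log2 fold change in 5 comparisons for these 5 genes (filled) and for the 95 other genes among the 100 brightest (open), under Z-normalization, median centring without scaling and quantile normalization. The filled and open points move together and lie between 0.23 and 0.39 under Z-normalization only.

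**Figure D4:**
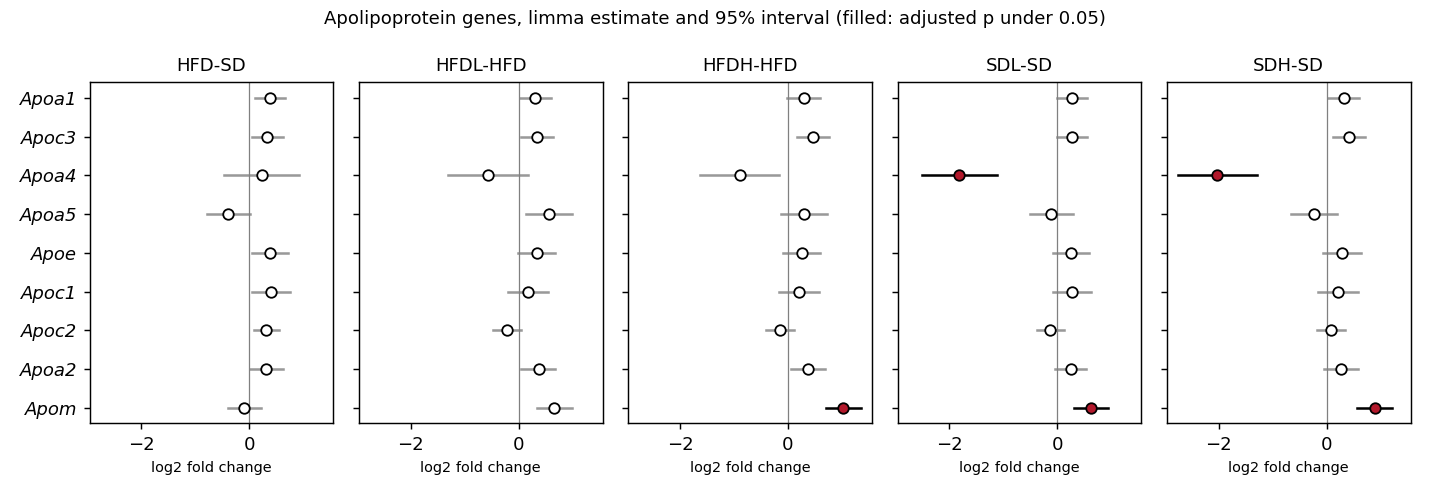
Log2 fold change with 95% interval (limma) of the 9 apolipoprotein genes with a probe in 5 comparisons, first-named group minus second. Filled points passed an adjusted p under 0.05: Apoa4 in SDL-SD (-1.82) and SDH-SD (-2.02), and Apom in HFDH-HFD (1.02), SDL-SD (0.63) and SDH-SD (0.89).

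Counted over the 9 genes tested, HFD-SD called 0 (0.934% of all genes were called) and HFDL-HFD called 0 (0.462%), with 6 and 5 genes at an unadjusted p under 0.05, most of them the bright probes described above (14% and 10.6% of all genes were under it). HFDH-HFD called 1 that rose (1.45% of all genes rose), and SDL-SD and SDH-SD each called 1 that rose (0.271% and 2.81%) and 1 that fell (0.362% and 4.26%). The gene that rose was Apom in all 3 comparisons and the gene that fell was Apoa4. The median log2 fold change of the 9 genes was 0.32 for diet alone, 0.34 and 0.29 for the low and high dose on the high-fat diet, and 0.25 and 0.27 for the low and high dose on the standard diet, against -0.04 to -0.01 over all genes. Set directly against SD, HFDL and HFDH each had 6 of 9 called upward (10.4% and 18.4% of all genes were called, and 3.75% and 7.13% rose), of which 5 were the bright genes and the sixth was Apom. For the bright genes these values depended on the scaling: in HFDH-SD they were 0.61 to 0.80 with Z-normalization, -0.01 to 0.09 with quantile normalization and -0.11 to 0.05 with median centring, and in HFDL-SD 0.57 to 0.72, -0.04 to 0.06 and -0.05 to 0.08. Apom was 0.93, 0.76 and 0.39 in HFDH-SD and 0.57, 0.41 and 0.12 in HFDL-SD under the same settings.

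Of 12 further apolipoprotein genes, 8 had a probe and 5 were tested. In SDH-SD, where 7.07% of all genes were called, Apoh, a phospholipid-binding plasma protein, rose (0.75 ± 0.16, SE; limma, adjusted p = 0.0072) and Apol9b fell (-1.14 ± 0.27; adjusted p = 0.012), and 0 of the 5 passed in the other comparisons, with 1 to 4 at an unadjusted p under 0.05. Apoh was 0.02 in HFDH-HFD and Apol9b was -0.54 (adjusted p = 0.97 and 0.26).

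Among 15 genes of lipoprotein assembly and secretion, all tested, 1 changed, in comparisons where 0.271% (SDL-SD) and 2.81% (SDH-SD) of all genes rose. Sort1, which encodes the sorting receptor sortilin that binds Apob, rose in SDL-SD (1.14 ± 0.20, SE; limma, adjusted p = 0.0048) and SDH-SD (1.35 ± 0.21; adjusted p = 0.00055), the comparisons in which Apoa4 fell, and stood at 0.24 and 0.68 in HFDL-HFD and HFDH-HFD (adjusted p = 0.75 and 0.069). Among 7 tested receptor and uptake genes, 2 were called in HFDH-HFD, where 4.39% of all genes were. Scarb1, the receptor for high-density lipoprotein, rose in HFDH-HFD (0.72 ± 0.14; adjusted p = 0.0035) and Vldlr, the very-low-density lipoprotein receptor, fell (-1.23 ± 0.33; adjusted p = 0.031). Both were near 0 in SDH-SD (0.05 and 0.01, adjusted p = 0.87 and 0.99).

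Of 9 tested enzymes of plasma lipoproteins and their regulators, 2 rose in SDH-SD and 1 in HFDH-HFD, where 2.81% and 1.45% of all genes rose. Lpl, lipoprotein lipase, which Apoc2 activates, rose by 2.45 ± 0.36 (SE) in SDH-SD (limma, adjusted p = 0.00023) and stood at 0.43 in HFDH-HFD (adjusted p = 0.53). Pon3, a paraoxonase carried on high-density lipoprotein, rose by 0.58 ± 0.13 in SDH-SD (adjusted p = 0.0091), and Lcat, which esterifies cholesterol with Apoa1 as its activator, rose by 0.43 ± 0.12 in HFDH-HFD (adjusted p = 0.040). Of 7 tested genes of sterol and phospholipid efflux, 0 were called in each of the 5 comparisons (limma), with 0 to 2 at an unadjusted p under 0.05.

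Of 20 tested regulators of apolipoprotein genes, 2 fell in SDH-SD, 3 in HFDH-HFD and 1 in HFD-SD, where 4.26%, 2.94% and 0.442% of all genes fell, and none rose. Ppara, the nuclear receptor of fatty acid catabolism, fell by 0.44 in SDH-SD and by 0.54 in HFDH-HFD (limma, adjusted p = 0.024 and 0.0082). Srebf1, the driver of fatty acid synthesis, fell by 1.12 and by 1.19 (adjusted p = 0.025 and 0.023), and Ppargc1b, a coactivator, fell by 0.79 in HFDH-HFD (adjusted p = 0.041). Nr5a2, a nuclear receptor of cholesterol and bile acid genes, fell by 0.59 in HFD-SD (adjusted p = 0.016). In SDL-SD, where Apoa4 was 3.52-fold lower, 0 of these 20 regulators were called (limma), against 0.633% of all genes. At an unadjusted p under 0.05 there were 4 of the 20, against 10.7% of all genes. Ppara stood at -0.23 in SDL-SD (limma, adjusted p = 0.46). Whether these regulators bear on Apoa4 was not tested.

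Of 6 other tested Creb3l3 target genes, 1 was called, in HFDH-HFD, where 2.94% of all genes fell. Cidec, a lipid droplet protein, fell there by 1.88 (limma, adjusted p = 0.018). It stood at -1.07 and -0.50 in SDL-SD and SDH-SD (adjusted p = 0.33 and 0.55). Of 11 tested lipid droplet and steatosis genes, 3 fell in HFDL-HFD, 5 in HFDH-HFD, 2 in SDL-SD and 3 in SDH-SD, where 0.392%, 2.94%, 0.362% and 4.26% of all genes fell, and none rose. Mogat1, which makes diacylglycerol, and Cidea, which enlarges lipid droplets, passed in all 4. Their log2 fold changes in these comparisons were -1.48, -1.57, -1.05 and -1.18 for Mogat1 and -3.48, -3.58, -2.76 and -2.88 for Cidea, with adjusted p of 0.00011 to 0.010. These 2 genes passed on both diets, whereas Apoa4 passed on the standard diet only, a contrast between diets that was not established for Apoa4 by the test of the difference given above.

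Over the 27 mice, the genes with the highest correlation with Apoa4 were Adhfe1 (r = 0.83), Stx8, the unnamed probe ILMN_2652482 and Slc13a3 (r = 0.79 each) and Them7 (r = 0.78). The lowest were Slco2a1 (r = -0.88), Gsta4 (r = -0.87) and Sort1 (r = -0.85). These values are descriptions, since the mice share groups and array scaling. For deviations from group means, the correlation with Apoa4 was -0.73 for Slco2a1, -0.66 for Gsta4 and -0.35 for Sort1. It was 0.46 to 0.60 for the genes of highest correlation named above. For Apom, looked at after its values were seen, the gene most like it was Crip2 (r = 0.90) and the one least like it Cidea (r = -0.87). For deviations from group means these correlations were 0.76 and -0.56.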

How the data were processed

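Liver RNA of 30 mice was hybridized to 32 arrays. Probe intensities were read out by the authors in GenomeStudio (version 2011.1) and are deposited as linear values, with no visible background subtraction and a detection p-value for every probe and array. A deposited Z score, made by the authors from log10 intensity array by array, served only in alternatives. In the column names the letter L after the diet stands for liver, so that SDL1 is an SD mouse. Columns of the DSF groups carry numbers absent from the sample titles and were assigned to groups only. Columns of no sample numbered 0.

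Here log2 intensities were centred on each array's mean, divided by its SD and multiplied by the mean SD of the arrays (1.89). Arrays with under 35% of probes detected were left out (3 mice), and 2 mice on 2 arrays each were averaged (r = 0.997 and 0.996). On the 29 arrays used, the median signal was 57 to 77 and 43.8% to 52.7% of probes were detected. Signal over background and the number of mice limit the precision. Of the probes, 23978 had 1 symbol, none had several and 1719 had none. Probes had to be detected in at least 5 mice (13275 were), and each gene was represented by its brightest probe on average. The model was fitted in limma (version 3.58.1, under R 4.3.3), with a mean for each of the 6 groups and Benjamini-Hochberg adjustment over 9954 genes. All adjusted p are from this model unless another setting is named, and ± after a fold change is its SE. The labels give cages of 4 but not which mice shared one, so p-values measure the spread between mice. Single values were compared by exact permutation. Scripts were tested on simulated data.

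The members, gene lists and tests were chosen with earlier results of these data known. Named genes were the 10 members, up to 4 genes of each other list with the smallest adjusted p among those called, and the genes of highest and lowest correlation with Apoa4. Alternatives covered normalization, filters, probes, mice, fits and the deposited scores. The second probes were added after the data were seen. Promoter windows were taken from RefSeq (GRCm38.p6), with windows for 8 of the 10 genes.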

Additional observations from a re-analysis of the deposited data

How the results depend on the processing

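The falls of Apoa4 in SDL-SD and SDH-SD and the rises of Apom in HFDH-HFD and SDH-SD held under every alternative run except the fits on all 30 mice without array weights. Leaving out each of the 27 mice in turn gave -2.01 to -1.67 and -2.27 to -1.71 for Apoa4, and 0.94 to 1.13 and 0.79 to 0.98 for Apom. Over the same 27 fits, Apom in SDL-SD ranged from 0.53 to 0.71 (1 to 2 genes called) and in HFDL-HFD from 0.58 to 0.76 (0 to 1 called), and Apoa4 in HFDH-HFD from -1.20 to -0.76 (1 to 2 called). Without SD mouse 5, Apoa5 in SDL-SD turned to 0.03 (range -0.20 to 0.03), and without SDH mouse 13, Apoc2 in SDH-SD turned to -0.01 (range -0.01 to 0.14). Without HFDH mouse 17, Apoc3 passed in HFDH-HFD (0.65, adjusted p = 0.0051) and in SDH-SD (0.42, adjusted p = 0.035; 3 called). The causes were not tested.

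With all 30 mice, 0 apolipoproteins were called in any of the 5 comparisons. Apoa4 was -1.72 in SDL-SD and -2.58 in SDH-SD, Apom was 1.69 in HFDH-HFD, 0.60 in SDL-SD and reversed to -0.38 in SDH-SD. In SDH-SD, Apoa1 (-0.50), Apoa2 (-1.21), Apoc1 (-1.23), Apoc2 (-1.07), Apoc3 (-0.99) and Apoe (-1.95) also reversed, as did Apoa2 (-0.13) and Apoe (-1.21) in HFDL-HFD and Apoe (-1.01) in HFDH-HFD. The 3 added arrays had 6.56%, 23.7% and 27.2% of probes detected. The deposited Z scores of all 30 mice gave, with and without the replicate block, -1.71 and -2.55 for Apoa4, 1.69, 0.60 and -0.39 for Apom in the same comparisons, and 0 called. In SDH-SD they gave -0.54 for Apoa1, -1.24 for Apoa2, -1.26 for Apoc1, -1.01 for Apoc2, -0.95 for Apoc3 and -1.95 for Apoe. They gave -0.14 for Apoa2 and -1.21 for Apoe in HFDL-HFD and -1.01 for Apoe in HFDH-HFD. With array weights, all 30 mice gave 1 called in HFD-SD, 3 in HFDL-HFD, 4 in HFDH-HFD and 3 in SDH-SD. The share of all genes called with array weights was not counted, so these counts cannot be set against it. In that fit Apoc3 was at 0.42 in SDH-SD (limma, adjusted p = 0.038). Apom was at 0.64 in HFDL-HFD (adjusted p = 0.0072) and Apoa4 at -0.95 in HFDH-HFD (adjusted p = 0.035).

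With median centring, HFDH-HFD called 3 (Apoa4 -1.19, Apoc2 -0.37 and Apom 0.71). The share of all genes called with median centring was not counted either. SDL-SD called 1 (Apoa4 -2, limma, adjusted p = 0.0038), and Apom was lost there (0.51, adjusted p = 0.074). The values that reversed were, in HFD-SD, Apoa2 (-0.01) and Apoa4 (-0.04), in HFDL-HFD, Apoc1 (-0.13), in HFDH-HFD, Apoa1 (-0.11), Apoa2 (-0.03), Apoc1 (-0.19) and Apoe (-0.15), and in SDH-SD, Apoa2 (-0.01), Apoc1 (-0.06) and Apoc2 (-0.06). With quantile normalization and with neqc alike, Apoa2 (-0.03) and Apoc3 (-0.04) reversed in HFD-SD, Apoc1 in HFDL-HFD (-0.07), HFDH-HFD (-0.06) and SDH-SD (-0.03), and Apoe in HFDH-HFD (-0.03). Apom in SDL-SD was lost with neqc (0.57), without the detection filter (0.63) and with 2 groups in the fit (0.63). It was also lost without SD mouse 2 and SDH mouse 17 (0.53), and each of these settings left 1 called. Without these 2 mice Apom passed in HFDL-HFD (0.66, 1 called). The mean over probes called 1 in HFD-SD, and the second Apoc2 probe was 0.04 in SDL-SD.

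Deviations of same-numbered HFD and SD mice from their group means had correlations of -0.20 to 0.21. The SD mouse that matched best was number 4, 2, 3, 4 and 1 for HFD mice 1 to 5. Whether the replicate numbers pair the mice was not settled by these values. With the replicate block, Apoa4 in HFD-SD was 0.23 (adjusted p = 0.71), and 12 genes were called against 16 without it in fits on these 2 groups alone, and no apolipoprotein call changed. The DSF groups carry other numbers. A slide block was not run, since no slide is named.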
